A study of Homo sapiens with 10 samples.

Results

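In CCRF-CEM cells, a human T lymphoblast line from a leukemia, 428 of 35505 accessible regions (1.21%) were called after both replication stress drugs in the parental line and in no other condition that was set against them. They had a peak in parental cells after 6 h of 100 nM prexasertib and after 4 h of 100 nM camptothecin. They had none in parental cells given DMSO and none in any of the 5 libraries of the SLFN11 knockout line. Regions were made by merging the peaks of all 10 lists on chromosomes 1 to 22 and X wherever they overlapped by at least 1 bp. The choice thus rests on the calls of 8 lists, and the parental lists at 2 h and 4 h of prexasertib played no part in it.

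SLFN11 is a helicase-like protein that is recruited to stalled replication forks, where it blocks further replication. Prexasertib inhibits CHK1, the checkpoint kinase that restrains origin firing and protects stressed forks. Camptothecin traps topoisomerase I on DNA, so that forks run into the trapped complex. The drugs thus stress replication through different targets, and chromatin around forks and origins is known to become more accessible in SLFN11-expressing cells under such stress.

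ATAC-seq reads out open chromatin through a transposase that cuts and tags accessible DNA. The 10 libraries were parental (wild-type, SLFN11-positive) and SLFN11 knockout cells, each given 100 nM prexasertib for 2, 4 or 6 h, 100 nM camptothecin for 4 h, or DMSO, with 1 library per group. There are no replicates, so the values below have no spread between samples, no test was made, and the intervals (exact Clopper-Pearson for shares, order-statistic for medians, 95%) cover counting error over regions only. The sources used here do not say how many knockout clones were studied. The series record calls the raw data of parental cells at 4 h of prexasertib truncated and does not say whether the peak list came from the intact reads. Every parental value at 4 h below rests on that list, and none of the rule does.

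Depth is described by the background pileup, the number of reads or fragments stacked at an average position, recovered from the deposited fold and p-value. A pileup also grows with the length given to each read or fragment, which the notes used here do not state. A library with a higher background pileup thus need not hold more reads. In parental cells the background pileup was 1.48 at 2 h, 1.33 at 4 h and 1.52 at 6 h of prexasertib, 1.45 with camptothecin and 1.63 with DMSO. In knockout cells it was 1.59 with DMSO and between 1.74 and 2.09985 with the drugs. The smallest pileup called as a peak was 8 in the 4 treated parental libraries, 9 in the parental DMSO library and 9 or 10 in the knockout libraries. A region with no peak in a list can thus still have held reads there, and absence from a list is not closed chromatin.

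The deposited lists give hg19 positions without gene names, and no hg19 annotation or genome was used here. The regions are therefore described by position, without genes, promoters or sequence.

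The rule selects a small part of a larger response. In parental cells 24.1% of all regions were gained with 6 h of prexasertib, meaning called there and not with DMSO, and 20.0% were gained with camptothecin. Gained with both drugs were 4249 regions, 12.0% of all. Of these 4249, the 428 described here (10.1%) had no call in the knockout line, 453 were called in 1 knockout list, 517 in 2, 607 in 3, 837 in 4 and 1407 (33.1%) in all 5. The regions absent from the knockout line were thus the smallest of the 6 classes, and most parental regions gained with both drugs were also called in at least 1 knockout library. Regions gained with 1 drug only lacked a knockout call more often. Of the 8563 regions gained with 6 h of prexasertib, those outside the 4249 included 2222 without a knockout call. Of the 7092 gained with camptothecin, those outside the 4249 included 1295. The share without a knockout call over all regions is not given here.

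These 4249 regions also differed in strength by the number of knockout calls. The median −log10 q of the 6 h prexasertib peak was 4.96 (4.54 to 5.43) in the 428 regions. It was 5.69 in regions called in 1 knockout list and 9.93 in those called in all 5. The median width at 6 h was 254.5 bp in the 428 regions and 438 bp in those called in all 5 knockout lists. By these medians the regions without a knockout call were the weakest and narrowest of the 6 classes. The classes are themselves set by peak calls, and these depend on strength.

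**Figure D1:**
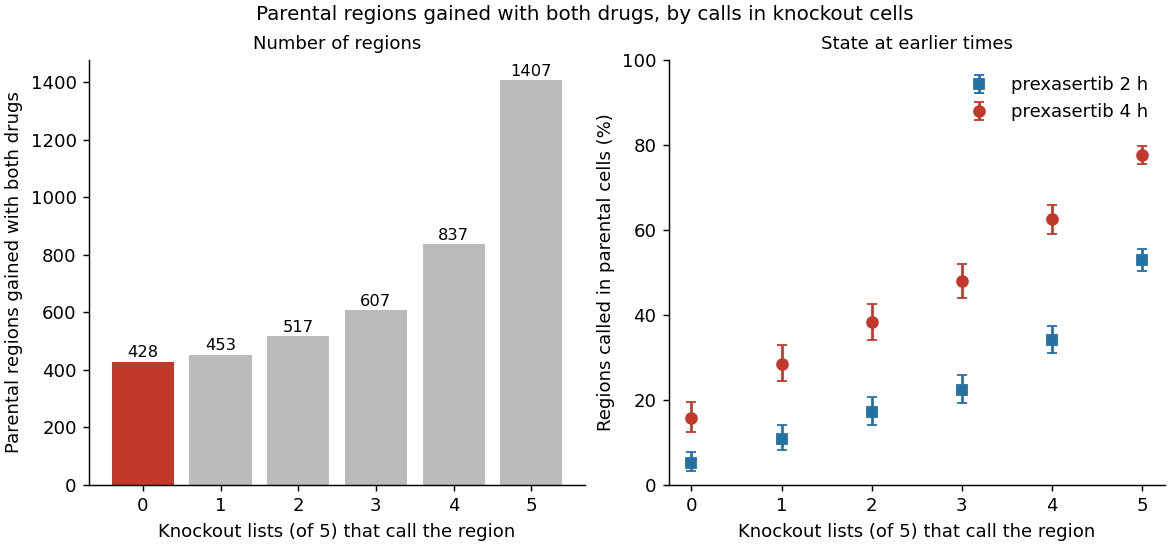
Parental regions gained with both drugs, grouped by how many of the 5 knockout lists call them. The left panel counts the regions, with the 428 described here in red, and the right panel gives the percent of each class called in parental cells after 2 h (blue squares) and 4 h (red circles) of prexasertib, with exact 95% binomial intervals; both shares are lowest in the class with no knockout call, at 5.14% and 15.7%.

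Most of the 428 regions lay close to the limit of detection. The highest pileup in a region had a median of 13 reads after 6 h of prexasertib (quartiles 11 and 19, range 8 to 284) and 12 after camptothecin (quartiles 10 and 16.2, range 8 to 218). Over the background pileup of the library, these medians are heights of 8.53 and 8.30. All regions called at 6 h had a median height of 18.4, and all called with camptothecin 18.7. The median −log10 q was 4.96 at 6 h and 4.27 (3.94 to 4.54) with camptothecin, against 13.6 and 12.9 over all regions called in those lists. The deposited fold over the local background had a median of 4.39 at 6 h and 4.27 with camptothecin. These values took part in the choice and describe the regions without testing them.

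The weaker of the 2 peaks set how firmly a region was called. Its −log10 q was under 3 in 156 regions (36.4%), from 3 to under 5 in 166 (38.8%), from 5 to under 10 in 88 (20.6%) and at least 10 in 18 (4.21%). The deposited lists hold no peak with a −log10 q under 2, so regions just short of the rule have no value to set beside these. The 3 weakest regions lay at chr8:21881339-21881913, at chr7:73624075-73624541, and at chr16:81650157-81650528. The chromosome 8 region had pileups of 9 in both libraries, with −log10 q of 2.44 after 6 h of prexasertib and 2.00 after camptothecin. The smallest pileup of any peak in those 2 lists is 8, which is 1 read below these summits. The camptothecin summit had a local background of 1.97 and lay close to the lowest −log10 q in its list. The 2 summits were 493 bp apart.

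Regions called with 1 drug only, and likewise absent from the parental DMSO and all knockout lists, were weaker still. Parental prexasertib at 6 h gave 2222 of them, with a median −log10 q of 3.55 and a median pileup of 11. Camptothecin gave 1295, with a median −log10 q of 3.04 and a median pileup of 10. These 2 sets are the nearest counterparts of the 428 regions and are used below wherever a value needs one.

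Within the 428 regions the 2 drugs gave summits of similar height. The 6 h prexasertib summit was higher in 239 regions and the camptothecin summit in 189, with a median log2 ratio of prexasertib over camptothecin of 0.06 (0.02 to 0.08). The same log2 ratio was 0.18 (0.17 to 0.19) over the 11558 regions that all 10 lists contain and whose pileups were recovered. Both values come from a single library per drug. Across the 428 regions the log2 heights under the drugs had a Pearson correlation of 0.81 and a Spearman correlation of 0.62. The points share their 2 libraries, the depth of these and the cutoff of the peak caller.

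The peaks of the 2 drugs also lay close together, within the bounds that a shared merged region sets. The distance between their best summits had a median of 54 bp (47 to 64), and 300 of 428 (70.1%) lay within 100 bp of each other. In the 1407 regions gained with both drugs and called in all 5 knockout lists the median distance was 44 bp (40 to 49), with 71.9% within 100 bp. In the 11603 regions called in all 10 lists it was 32 bp, with 82.1%. In 298 of the 428 regions (69.6%) the 2 peaks overlapped by at least 50% of the longer one, against 80.5% and 95.9% in those sets. A 1 bp overlap was enough for the rule, and most pairs of peaks reached 50%, a smaller share than in those sets.

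**Figure D2:**
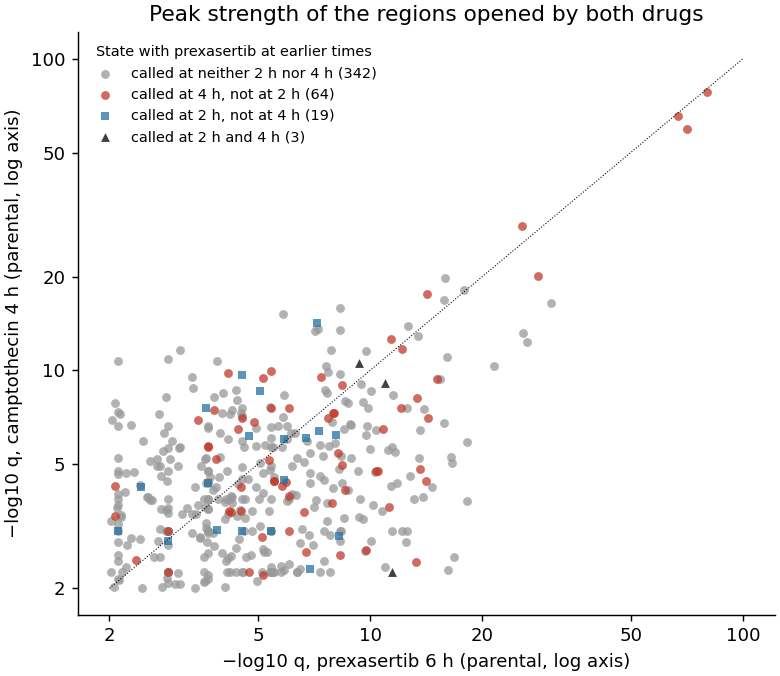
Each point is a region called after both drugs in parental cells only, with the −log10 q of its best summit after 6 h of prexasertib on the x axis and after 4 h of camptothecin on the y axis (both log axes; the dotted line marks equal values). Most points crowd below 10 on both axes, 3 regions exceed 50 on both, and the 67 regions called at 4 h of prexasertib include the 5 with the highest smaller value.

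The regions were narrow. The longest peak in a region measured a median of 254.5 bp at 6 h of prexasertib (quartiles 205 and 336, range 160 to 957) and 263 bp with camptothecin (quartiles 219.75 and 329, range 175 to 805). Over all regions called in these lists the medians were 498 and 526 bp. In the sets called with 1 drug only they were 220 bp for 6 h prexasertib and 237 bp for camptothecin.

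The lists differ in the shortest peak they contain, and this bears on the rule directly. The shortest peak measured 202, 179 and 160 bp in parental cells at 2, 4 and 6 h of prexasertib, 175 bp with camptothecin and 199 bp with DMSO. In the knockout lists it lay between 192 bp and 208 bp. The 2 lists that had to hold a peak were thus those with the shortest minimum widths of the 10. A narrow peak could enter the 6 h prexasertib and camptothecin lists at a width that no peak of the parental DMSO list or the knockout lists has. Summit heights were also scaled to the background of each list that must hold no peak. Both summits would pass the lowest −log10 p in all 428 regions for parental DMSO and each treated knockout list. For knockout DMSO the count was 406. With the shortest width also required of both peaks, between 263 and 327 regions would pass. Why a region lacked a call there was not tested.

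Of the 428 regions, 94 (21.96%, 18.1% to 26.2%) had a 6 h peak shorter than the shortest DMSO peak, and 59 (13.8%) had such a camptothecin peak. With the longest of the 10 minimum widths, 208 bp, as the limit, 263 regions reached it in both lists, 136 in 1 list and 29 in neither. In the set called with 6 h prexasertib only, 42.4% of peaks were below 208 bp, against 26.4% of the 6 h peaks in the 428 regions and 10.6% over all regions called at 6 h. When peaks shorter than 208 bp were removed from all 10 lists, 291 regions met the rule, and 263 of the 428 were found again among them. In the knockout line the mirror of the rule, with a peak after 6 h of prexasertib and after camptothecin, none with knockout DMSO and none in the 5 parental lists, gave 205 regions as deposited and 247 with this limit. The parental excess of 428 over 205 regions was 291 over 247 with this limit. The limit also removes short peaks from the lists that must hold none, so further regions can meet the rule. With calls as deposited, and both peaks of the rule at least 208 bp long, there were 263 parental and 178 knockout regions. The part of width in the excess was not tested. Scaling all lists to the shallowest background, together with a common floor on −log10 p of 4.55, gave 500 parental and 117 knockout regions, and keeping only peaks with a −log10 q of at least 10 gave 257 and 73, of which 18 of the 257 are among the 428. The number of regions and its excess over the knockout line thus changed with these settings, and what scaling and the floor each contribute was not tested.

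**Figure D3:**
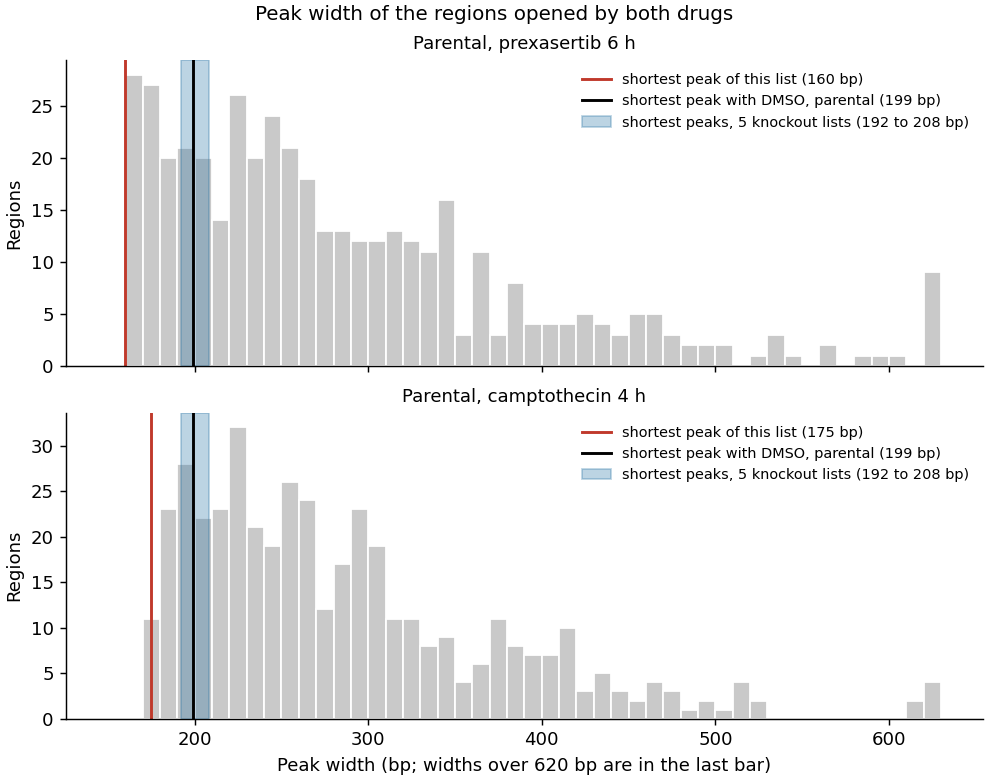
Width of the longest peak in each of the 428 regions, in bins of 10 bp, after 6 h of prexasertib (top) and 4 h of camptothecin (bottom) in parental cells. Lines mark the shortest peak of the plotted list (red) and of the parental DMSO list (black, 199 bp), and the blue band spans the shortest peaks of the 5 knockout lists (192 to 208 bp); the bars left of the black line are 94 regions in the top panel and 59 in the bottom panel.

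The earlier prexasertib libraries were not used to choose the regions, so their state there is a separate readout. After 2 h, 22 of 428 regions (5.14%, 3.25% to 7.68%) were called in parental cells, against 12.8% of all regions not called with DMSO. After 4 h, 67 (15.7%, 12.3% to 19.4%) were called, against 20.1% of all regions not called with DMSO. Only 3 were called at both times, 64 at 4 h only, 19 at 2 h only and 342 (the remainder) at neither. Most of these regions were therefore seen after 6 h of prexasertib and after camptothecin without an earlier call. Their shares at 2 h and 4 h were below that background, which includes regions called in knockout cells. Scaled to the 4 h background, the 6 h summit would pass the lowest −log10 p of the 4 h list in 387 of 428 regions, and the camptothecin summit in 375. For the 2 h list these counts were 425 and 411. With the shortest width of the list also required of both peaks, 293 regions would pass at 4 h and 267 at 2 h. By width alone, at least 1 of the 2 peaks reached the shortest width in 425 regions at 4 h and 407 at 2 h. The part of detection in the missing earlier calls was not tested.

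Against regions that are also absent from the knockout lists, the order was the other way. After 4 h, 67 of 428 regions (15.7%) were called, against 93 of 2222 (4.19%, 3.39% to 5.10%) of those called with 6 h prexasertib only and 47 of 1295 (3.63%, 2.68% to 4.80%) of those called with camptothecin only. After 2 h the shares were 5.14%, against 1.40% (0.9498% to 1.97%) and 2.70% (1.89% to 3.74%). The intervals at 4 h do not overlap, and at 2 h the interval of the 428 regions overlaps that of the camptothecin set. With 1 library per time this difference has no replicate check.

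The 428 regions were stronger than those 2 sets, so the shares were also compared in classes of −log10 q. The classes match the peak of 1 drug only, and the strongest class has no upper limit. By the rule the 428 regions also hold a peak with the other drug, which the 2 sets lack. The comparison cannot separate the state at 4 h from that choice. Among 6 h peaks with a −log10 q from 2 to under 3, 5 of 85 (5.88%, 1.94% to 13.2%) were called at 4 h, against 21 of 933 (2.25%, 1.40% to 3.42%) of those called with 6 h prexasertib only. From 3 to under 5 the shares were 10.8% and 4.11%, and from 5 to under 10 they were 18.2% and 7.28%. At 10 and above, 21 of 65 (32.3%, 21.2% to 45.1%) were called at 4 h, against 10 of 99 (10.1%, 4.95% to 17.8%). The share was higher in the 428 regions in each of the 4 classes, with intervals that overlap in the weakest class. Binned on the camptothecin peak, the shares were again higher in the 428 regions than in the camptothecin set in all 4 classes, from 10.2% against 1.52% in the weakest to 28.1% against 16.7% in the strongest, where that set held 12 regions. At 2 h that strongest class ran the other way, with 2 of 32 (6.25%) against 2 of 12 (16.7%), counts too small to order. Of the 263 regions with both peaks of at least 208 bp, 47 (17.9%) were called at 4 h, and of the 291 regions found with that limit in all 10 lists, 40 (13.7%, 10.0% to 18.2%) were.

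Regions called at 4 h were the stronger ones. Their 6 h peak had a median −log10 q of 6.72 (5.52 to 8.38) and a median width of 313 bp, against 4.54 (4.26 to 5.07) and 252 bp in the 361 regions not called at 4 h. Where a region was called at both times, the 6 h summit was higher than the 4 h summit in 47 of 67, with a median log2 ratio of 0.21 (0.09 to 0.30). In regions that every list contains, that log2 ratio was 0.41. At 2 h the 22 called regions had a median pileup of 11.5, and the 6 h summit was higher in 13 of 22, with a log2 ratio whose interval ran from -0.20 to 0.54. The median of that ratio was 0.14, against 0.88 (0.87 to 0.89) in regions that every list contains. The heights thus gave no clear order between 2 h and 6 h in these 22 regions.

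**Figure D4:**
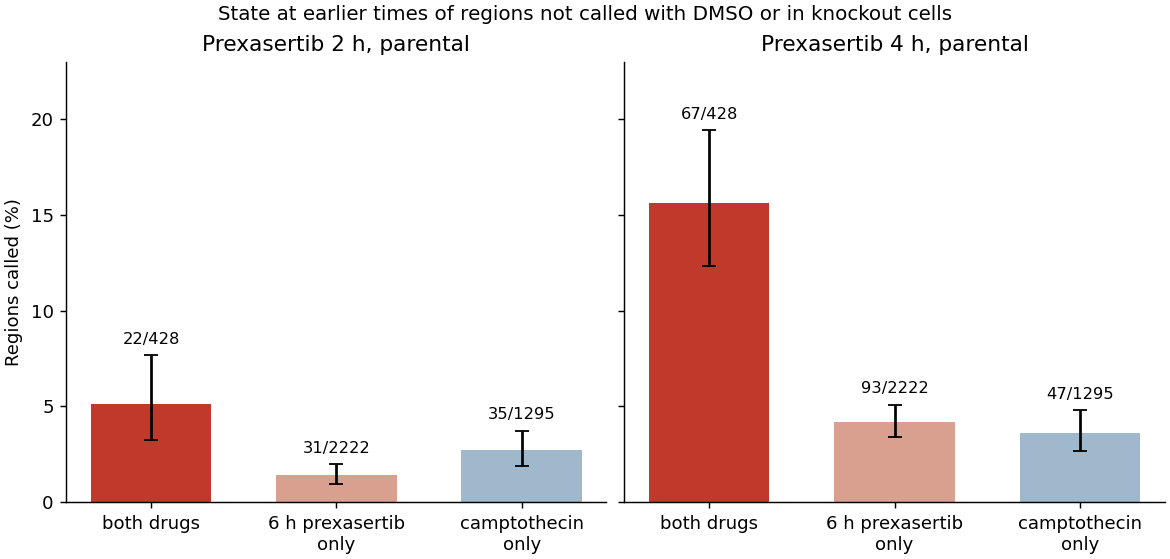
Percent of regions called in parental cells after 2 h (left) and 4 h (right) of prexasertib, for the 428 regions opened by both drugs and for the regions called with 6 h prexasertib only or camptothecin only, all absent from the parental DMSO and the 5 knockout lists. Error bars are exact 95% binomial intervals and the labels give counts; at 4 h the bar for both drugs stands at 15.7%, against 4.19% and 3.63%.

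Among all parental regions gained with both drugs, the share seen earlier followed the number of knockout calls. At 2 h it was 5.14% in the 428 regions, 10.8%, 17.2%, 22.4% and 34.2% in regions called in 1 to 4 knockout lists, and 52.9% in those called in all 5. At 4 h it was 15.7%, 28.5%, 38.3%, 47.9%, 62.5% and 77.7% in the same order. The 428 regions thus had the lowest shares of the 6 classes at both times, and they were also the weakest class. The classes are set by calls in other lists and differ in strength. The order of the shares therefore cannot be read apart from strength. The mirror set in knockout cells looked different. Of its 205 regions, 119 (58.0%, 51.0% to 64.9%) were called after 2 h and 79 (38.5%, 31.8% to 45.6%) after 4 h of prexasertib in knockout cells, where 36.6% and 25.2% of all regions not called with knockout DMSO were called. The knockout 2 h library has the highest background pileup of the 10, and the part of depth in these shares was not tested.

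Several of the strongest of the 428 regions lay near the longest stretch of their chromosome that holds no region in any list. By the smaller −log10 q of the 2 lists, the first was at chr10:42545975-42546159. Its pileup was 121 after 4 h and 148 after 6 h of prexasertib and 147 after camptothecin, with a width of 180, 185 and 182 bp. All 3 peaks were shorter than any peak in the parental DMSO list, and the local background of 17.1 at 6 h was 11.2 times that of the genome. The third, at chr10:42408183-42408368, had pileups of 97, 122 and 111 and a width of 186 bp in each of those libraries. The nearest region called with DMSO was 704 bp away. Both lie within 1 Mb of that stretch on chromosome 10.

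The regions at chr16:46399487-46399703 and chr11:51584648-51584965 also lay within 1 Mb of such a stretch. In the chromosome 16 region the pileup was 247 after 4 h and 284 after 6 h of prexasertib and 215 after camptothecin, over a local background of 126, 130 and 99.9. The deposited fold there was only 1.95, 2.18 and 2.14. In the chromosome 11 region the pileup was 204 at 6 h and 218 with camptothecin, at a fold of 2.00 and 2.11. On chromosome X the longest empty stretch ran from 32174167 to 36884797, and the 2 strong regions there did not lie near it. Only the longest stretch of each chromosome was used, so whether these 2 regions lay near a shorter one was not tested. At chrX:61717703-61718008 the pileups were 149 and 107, over a local background 29.7 times that of the genome at 6 h. At chrX:61866517-61866701 they were 34 after 4 h, 34 after 6 h and 38 with camptothecin, with widths of 185, 170 and 175 bp, over a local background 1.48 times that of the genome at 6 h. Of the 8 strongest regions, 4 lay within 1 Mb of the longest empty stretch of their chromosome, 6 had a local background over 3 times that of the genome, and 6 had a peak under 208 bp in at least 1 of the 2 lists. Over all 428 regions, 12 (2.80%, 1.46% to 4.85%) lay within 1 Mb of such a stretch, against 2.07% of all regions. A local background over 3 times that of the genome was seen in 53 regions (12.4%), against 37.3% of all regions called at 6 h.

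Other strong regions stood on a lower background. The second, at chr9:99002267-99002480, had pileups of 55 after 4 h and 78 after 6 h of prexasertib and 71 after camptothecin, with a fold of 13.8, 15.8 and 17.7 and widths of 210, 201 and 212 bp. It had no peak at 2 h, and the nearest region called with DMSO was 89301 bp away. At chr11:66277854-66278385, the pileup was 14 after 4 h, 22 after 6 h and 24 after camptothecin, and the widths were 291, 365 and 517 bp. At chr1:150185868-150186327, it was 13, 20 and 18, at widths of 385, 418 and 353 bp. Their local background at 6 h was 1.21 and 1.19 times that of the genome, and their peaks were longer than the shortest peak of every list.

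Several strong regions had no earlier call. At chr16:87887319-87887831, pileups were 37 after 6 h of prexasertib and 38 after camptothecin, with widths of 462 and 423 bp. At chr21:38807338-38807706, they were 38 and 24, and at chr2:84743402-84743789, 20 and 21. At chr9:137341518-137341874, they were 28 and 27, with widths of 198 and 339 bp. At chr7:75807533-75807863, they were 22 and 21, with widths of 163 and 331 bp. The 6 h peaks of these 2 regions were shorter than any peak with parental DMSO. At chr11:329473-330038, they were 56 and 33, with widths of 566 and 204 bp. The local background at 6 h was 5.17 times that of the genome there, and 3.16 times at chr16:87887319-87887831. Of the 15 strongest regions 7 were called at 4 h and 0 at 2 h.

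The 3 regions called in all 4 treated parental libraries were moderate in height. At chr7:145833585-145833969, the pileup was 14 at 2 h, 12 at 4 h and 16 at 6 h of prexasertib, and 17 with camptothecin. At chr2:12426459-12426903, it was 10, 14 and 19, and 17 after camptothecin. At chr10:94661517-94662002, it was 9, 14 and 18, and 8 after camptothecin. The first had much the same pileup throughout, while the other two had their lowest prexasertib pileup at 2 h and their highest at 6 h.

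The widest regions, by the smaller width of the 2 lists, included strong and weak ones. The region at chr17:7080681-7081495 measured 793 bp after 6 h of prexasertib and 747 bp after camptothecin, with pileups of 23 and 16. The region at chr11:2398845-2399649 measured 537 and 805 bp, with pileups of 38 in both, and it lay 230 bp from a region called with DMSO. The region at chr12:5997150-5997712 measured 527 and 528 bp with pileups of only 9 and 10. The other two were at chr1:210547264-210547867, at 600 and 483 bp, and at chr3:36985903-36986448, at 476 and 515 bp.

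Across the genome the 428 regions were spread over all 23 chromosomes examined and stood mostly alone. The distance to the nearest other of the 428 had a median of 1212629 bp, and 10 regions lay within 10 kb and 37 within 100 kb of another. Chromosome 1 held 52 of them, chromosome 19 31, chromosome 17 28, chromosome 6 27 and chromosome X 6. Per 100 merged regions there were 2.06 (1.18 to 3.33) on chromosome 22, 2.01 (1.28 to 3.00) on chromosome 20 and 1.87 (1.27 to 2.64) on chromosome 19. The lowest values were 0.483 (0.209 to 0.949) on chromosome 4, 0.524 (0.193 to 1.14) on chromosome X and 0.586 (0.281 to 1.07) on chromosome 5, against 1.21 over all chromosomes. As a share of the parental regions gained with both drugs, values ran from 4.00% (1.48% to 8.50%) on chromosome X to 13.6% (8.83% to 19.7%) on chromosome 20. Over all chromosomes the share was 10.1% (9.18% to 11.02%), and the interval of chromosome X lay below that. Regions called with 1 drug only ran from 7.43 per 100 merged regions on chromosome X to 12.4 on chromosome 20, against 9.91 over all chromosomes.

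**Figure D5:**
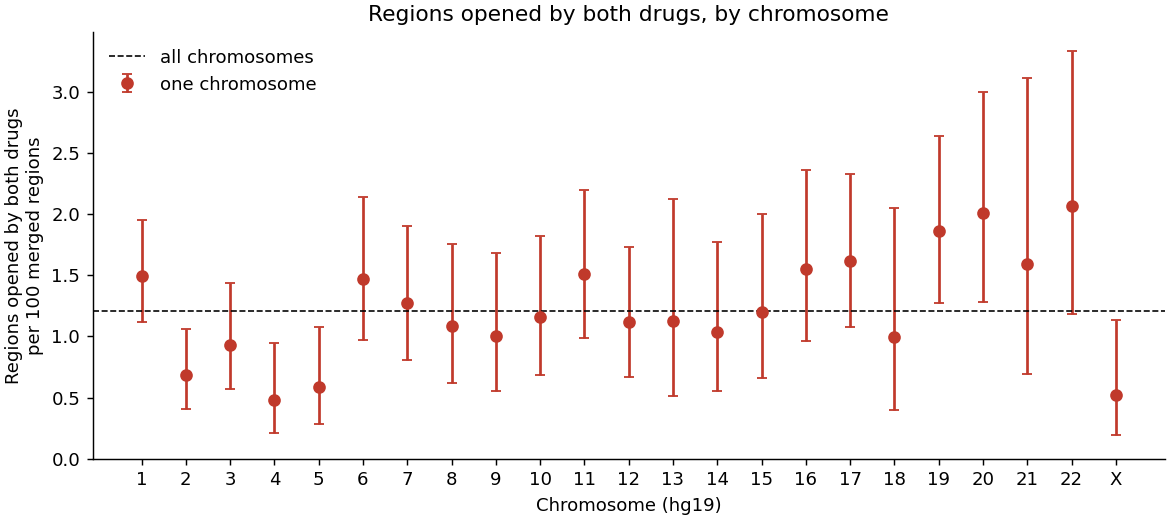
Number of the 428 regions per 100 merged regions on each chromosome, with exact 95% binomial intervals; the dashed line is the value over all chromosomes (1.21). Chromosomes 22, 20 and 19 are highest, at 2.06, 2.01 and 1.87, and chromosome 4 is lowest at 0.483.

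The 428 regions also lay somewhat nearer to regions called with DMSO than the sets called with 1 drug only did. The nearest region called with parental DMSO was a median of 30437 bp away (26887 to 35934), against 38973 bp (36462 to 41726) in the set called with 6 h prexasertib only and 46073 bp (42167 to 51566) in the camptothecin set. Over all regions not called with DMSO the median was 36419.5 bp (35556 to 37182). Within 1 kb of a DMSO region lay 11 of the 428 (2.57%) and within 10 kb 88 (20.6%), against 2.66% and 18.8% of all regions not called with DMSO. The share within 1 kb was thus close to that over all such regions.

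The pair of 6 h prexasertib and camptothecin in parental cells was the most frequent among regions called in exactly 2 of the 10 lists. It held 342 of the 3161 such regions, these being the regions with no call at 2 h or 4 h. The next pair, 2 h and 6 h of prexasertib in knockout cells, held 308, and the third, 6 h prexasertib in parental cells with 2 h prexasertib in knockout cells, held 195. The list lengths differ, and longer lists form more pairs, so the order is a description of these 10 lists.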

How the data were processed

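Each library has 1 peak list, deposited by the authors on hg19 in the narrowPeak layout. The submitters' processing notes name MACS2 2.1.2, BWA 0.7.17, Picard 2.9.2, Trim Galore 0.6.2, SAMtools 1.8 and Trimmomatic 0.39. Parameters, any control library, read shifting and duplicate removal are not stated in the notes used here. The deposited columns used were start, end, summit, the fold over the local background, the −log10 p-value and the −log10 q-value; the deposited score was not used in any result. From these, lines with equal start and end were taken as summits of 1 peak, and peaks of the 10 lists were merged at 1 bp overlap. The whole pileup and local background that give both the deposited fold and −log10 p (within 0.001) were recovered for 99.5% to 99.7% of summits, and the smallest background of a list was taken as its genome-wide background. The steps were tested on simulated data. Python 3.11.15, pandas 2.3.3, scipy 1.17.1 and matplotlib 3.10.9 were used.

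The rule and lists were chosen with earlier results of these data known. Named regions were the 15 with the highest smaller −log10 q, those called at both 2 h and 4 h, the 5 with the largest smaller width and the 3 weakest. Gene starts and motifs, which had been planned, were not analysed here because no hg19 annotation or genome was used. Alternatives on overlap, threshold, merging, depth and width were computed.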

Additional observations from a re-analysis of the deposited data

Results flagged for a closer look

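Peaks on unplaced, unlocalized and alternate sequences were left out of the regions above. By the same rule, 28 of 776 regions on those sequences (3.61%) were called after 6 h of prexasertib and after camptothecin in parental cells and in neither the parental DMSO nor any knockout list; the signal stood out because it lies outside the chromosomes compared. Of these, 6 were called after 4 h and 1 after 2 h of prexasertib. Many of these sequences are copies of chromosome sequence, so reads can be placed on either.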

How the results depend on the processing

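With 1 library per group these values rest on no test. Regions by the rule numbered 726 with a reciprocal overlap of 50%, 257 with a −log10 q of at least 10 in all lists, 106 with at least 5 in the 2 lists of the rule and 263 with both peaks at least 208 bp long. Of the 428, 18 were among the 257, 298 among the 726 and 331 among the 500 found after scaling to the shallowest background with a common floor on −log10 p of 4.55. The share called at 4 h became 28.7%, 24.1%, 24.5% and 23.8% with reciprocal overlap, −log10 q of at least 10, at least 5 and scaling, and the share at 2 h 13.1%, 2.33% and 8.40% with reciprocal overlap, at least 10 and scaling. The knockout mirror numbered 366, 73, 19 and 117 under the same 4 settings in that order. By class of −log10 q, the 4 h difference from the set called with 6 h prexasertib only was 3.63, 6.66 and 22.2 percentage points. These are the classes from 2 to 3, 3 to 5 and 10 up, against 11.5 in all. From the camptothecin set the difference was 8.69 in the weakest class, against 12.0 in all. The other 31 values, those with a minimum width in all lists, a limit on local background, merging within 200 bp and the empty stretch among them, moved within 1.5-fold for counts or within the interval of the main value. The width, local background and empty-stretch settings, all settings of the knockout mirror, and those of the shares at a −log10 q of 5 and after scaling were chosen after the data were seen. The share near gene starts was not run. No paired analysis was possible because there is 1 library per group. Depth limits detection to pileups of about 8 to 10.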
